A study of Caenorhabditis elegans with 4 samples.

Results

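Chromosome IV of Caenorhabditis elegans carried 2727 of the 15152 RNA polymerase II peaks in the series-wide list of an AMA-1 ChIP-seq series, 511 of 2838 peaks in the list of replicate 1 and 486 of 2843 in that of replicate 2. The members are all peaks whose chromosome column reads IV. The series-wide peaks are the main set and the replicate lists serve as support. The chromosome thus carried 18.0%, 18.0% and 17.1% of the peaks of the 3 lists.

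AMA-1 is the large subunit of RNA polymerase II, the enzyme that transcribes protein-coding genes and many small nuclear and other non-coding RNAs. Its peaks mark DNA where the polymerase is initiating, paused or elongating, so that a strongly transcribed gene or operon can appear as a broad peak and a promoter as a narrow one. In C. elegans the middle parts of the autosomes hold many conserved, widely expressed genes, whereas the arms recombine more and hold more repeats. The gene ama-1 itself lies on IV. Chromosome IV is also known for the genes of the 21U-RNAs, the germline piRNAs that polymerase II transcribes from many short separate units. Of 15363 piRNA genes named for the WBcel235 assembly, 14714 (95.8%) are assigned to IV.

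The samples were mixed embryos of strain N2, labelled wild type and of mixed males and hermaphrodites, and the series gives a temperature of 20 degrees Celsius. The growth protocol is an RNAi one by its name, and the titles add RiIMB1, whose meaning is not given. No sample of another RNAi condition stands beside these. The 2 ChIP libraries used an affinity-purified rabbit polyclonal antibody against AMA-1, and the 2 input DNA libraries give no peak list of their own here. Nothing in the labels says that the replicates came from separate cultures, so differences between them may be technical. In a population of embryos of many ages, occupancy in few cells and weak occupancy in many cells cannot be told apart.

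Most peaks of IV were short and of low score, and a small number were long and of high score. The median series-wide peak was 332 bp wide (quartiles 207 and 637.5 bp), and 1226 peaks were shorter than 300 bp. At the other end, 127 peaks were 3 kb or longer and held 37.6% of all covered bases of IV. Scores had a median of 5.86 and quartiles of 3.85 and 9.88, while the highest was 175.08. A score under 5 was given to 1114 peaks (40.9%) and one over 100 to 27, where 132 of all 15152 series-wide peaks scored over 100. The median and quartiles over all chromosomes were the same as on IV, 5.86, 3.85 and 9.88. Width and score rose together across peaks (rank correlation 0.71 over 2727 peaks, a description, since a longer peak can gather more reads). The 280 peaks of IV that belonged to the top 10% of series-wide peaks by score were 10.3% of its peaks, against a background of 10.0% over all chromosomes, and held 47.8% of its covered bases. In covered length that was 0.998 of 2.09 Mb on IV, beside 5.34 of 11.9 Mb over all chromosomes.

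The replicate lists described the same chromosome in broader pieces. Replicate 1 peaks had a median width of 2977 bp and covered 2.39 Mb, or 13.7% of IV. Replicate 2 peaks had a median width of 2717 bp and covered 2.05 Mb, or 11.7%. The series-wide peaks covered 2.09 Mb, or 12.0%. The lists thus marked roughly similar total lengths of the chromosome in pieces of different size, though not wholly the same bases, since the replicates shared 1.66 Mb. On average 3.22 series-wide peaks lay in each peak of replicate 1 and 2.72 in each of replicate 2, and at most 17 and 14. Exactly 1 series-wide peak lay in 117 replicate 1 peaks and in 129 replicate 2 peaks. No series-wide peak lay in 4 of 511 replicate 1 peaks (0.783%, against 0.388% over all chromosomes) and in 3 of 486 replicate 2 peaks (0.617%, against 1.06%).

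By density IV lay close to the genome as a whole. It carried 156 series-wide peaks per Mb, against 150 per Mb over the other 5 chromosomes together. Singly these differed widely, with 215 on I, 212 on III, 166 on II, 107 on V and 85.4 on X. In replicate 1 the values were 29.3 per Mb on IV and 28.1 on the others, and in replicate 2 they were 27.8 and 28.5. The ratio of IV to the rest was 1.04 in the series-wide list, 1.04 in replicate 1 and 0.976 in replicate 2, so its direction was not the same in every list. Score and width quartiles differed little as well. The median series-wide score was 5.86 on IV and 5.86 over the other chromosomes, and the median width was 332 and 347 bp.

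Of the 2727 series-wide peaks of IV, 1031 (37.8%, interval 36.0 to 39.6%) overlapped a peak in both replicate lists, where 38.7% of all series-wide peaks did so. Another 606 (22.2%) were found in the replicate 1 list and not the other, 285 (10.5%) in the replicate 2 list and not the other, and 805 (29.5%, interval 27.8 to 31.3%) in neither, for which the background over all chromosomes was 26.2%. The share found in neither list was the highest of the 6 chromosomes, since the other 5 lay between 24.4% on V and 26.7% on X, a difference that was not tested. These 805 peaks were short and weak. Their median width was 228 bp and their median score 4.27, against 654 bp and 9.88 for those in both, and they held 10.8% of the covered bases of IV, against 68.1%.

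Between the replicates, 364 of 511 replicate 1 peaks of IV (71.2%, interval 67.2 to 75.0%) had a replicate 2 partner, with a background of 71.8% over all chromosomes. In the other direction 381 of 486 (78.4%, interval 74.5 to 81.8%) had one, with a background of 77.0%. Both lists covered the same 1.66 Mb of IV, a share of 69.3% for replicate 1 and 81.0% for replicate 2. In 285 pairs in which each peak had the other as its single partner, the rank correlation was 0.81 for scores and 0.83 for widths, both given as descriptions across peaks of 2 libraries. Peaks without a partner were the short, weak ones: in replicate 1 their median was 1723 bp and a score of 94.0, against 3812.5 bp and 476.65 for those with a partner, and in replicate 2 it was 1636 bp and 90.33, against 3180 bp and 331.14.

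Support climbed steeply with score in every list. In the lowest 25% of replicate 1 scores on IV 37.0% of 127 peaks had a partner, and in the highest 25% 97.7% of 128 did. In replicate 2 the shares were 54.5% of 121 and 99.2% of 122. Among series-wide peaks the share in both lists went from 17.8% through 20.8% and 37.4% to 75.2% across the 4 score classes, while the share in neither went from 47.3% to 5.72%. In each list the peaks of the highest score class had a counterpart more often than those of the lowest. Median width rose with the score class too. It went from 206 to 1091 bp in the series-wide list, 1394 to 7738 bp in replicate 1 and 1423 to 6621.5 bp in replicate 2. A wider peak meets a counterpart more easily, and how far this accounts for the rise was not tested.

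**Figure D1:**
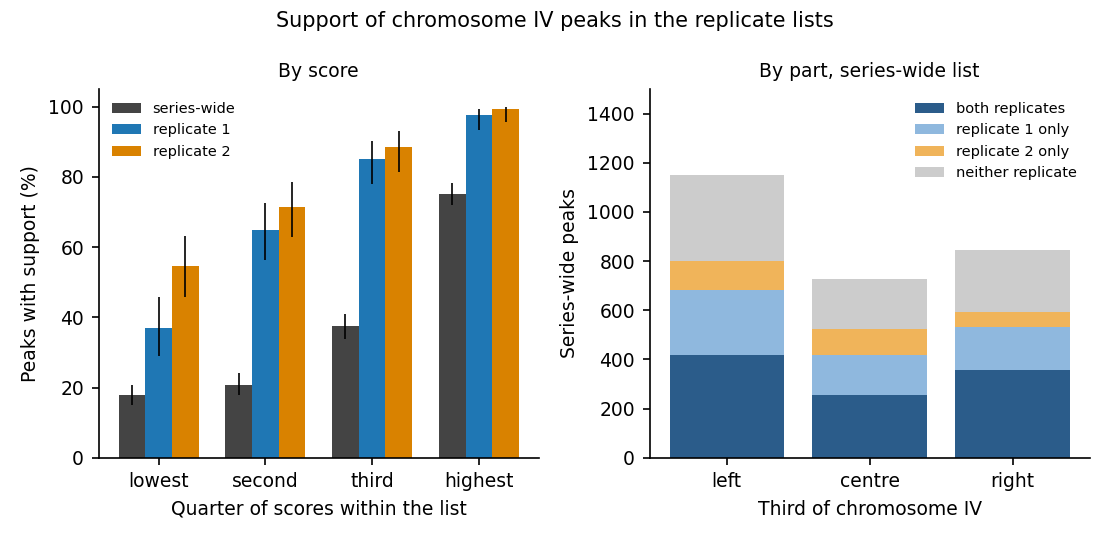
Left, the share of chromosome IV peaks with support (%), by score class within each list, where support is a peak in both replicate lists for series-wide peaks and a peak in the other list for replicate peaks; error bars are 95% Wilson intervals. Right, the number of series-wide peaks in each part of IV by the lists that held them. Support rises from 17.8% to 75.2% for series-wide peaks, and the left part holds the most peaks of each kind shown.

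Along the chromosome the left part was the fullest and the centre the emptiest. The left part, from 1 to 5820487, held 1152 series-wide peaks (198 per Mb), the centre, up to 11640974, held 729 (125 per Mb), and the right part held 846 (145 per Mb). Replicate 1 listed 207, 132 and 172 peaks in the same order and replicate 2 listed 193, 139 and 154. The order left, right, centre was the same in all 3 lists. The outer parts together were 1.37 times as dense as the centre in the series-wide list, 1.44 times in replicate 1 and 1.25 times in replicate 2. They were denser than the centre on each of the other chromosomes too, in all 3 lists. In the series-wide list the ratio of IV lay above those of V (1.34) and X and below those of III (1.39), II and I. In both replicate lists IV had the lowest ratio of the 6. The others ran from 1.458 on III to 1.547 on X in replicate 1, and from 1.2875 on V to 1.366 on II in replicate 2. No difference between chromosomes was tested.

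The 2 outer parts of IV were unequal. The left part held 1.36 times the peaks of the right part in the series-wide list, 1.20 times in replicate 1 and 1.25 times in replicate 2. On the other chromosomes the same ratio lay between 0.940 on X and 1.09 on I in the series-wide list, between 0.735 on X and 1.20 on I in replicate 1, and between 0.866 on II and 1.04 on I in replicate 2. Chromosome IV had the highest value of the 6 in each list, but in replicate 1 its 1.203 was barely above the 1.196 of I, and the difference was not tested. On IV the excess on the left was as large among the better-scoring 50% of the series-wide list, at 1.37. It was not seen in the top 10% by score, of which the left part held 101, the centre 80 and the right part 99, a ratio of 1.02.

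High replicate scores were placed differently from peak numbers. Replicate 1 peaks of the centre had a median score of 340.09, against 255.24 on the left and 253.94 on the right, and a median width of 3393 bp, against 2824 and 2674.5 bp. In replicate 2 the median scores were 256.77 in the centre, 154.73 on the left and 239.92 on the right. The median replicate score was thus highest in the centre in both lists, whereas the upper quartile was highest there in replicate 1 (1917.42, against 771.95 on the left and 1016.07 on the right) but not in replicate 2 (1059.53, against 415.95 and 1118.87). In the whole series-wide list the centre was lowest, with medians of 5.5 there, 6.0 on the left and 5.86 on the right. The upper quartiles were 9.28, 9.88 and 10.775. In its best-scoring 10% the centre had the highest median, 38.19, against 29.03 on the left and 31.32 on the right. Among series-wide peaks found in both replicates the centre had the lowest median, 9.23, against 9.88 and 10.24. Its upper quartile was the highest there, 23.06, against 17.675 and 20.0875. Support by both replicates was 36.3% on the left (interval 33.6 to 39.1%), 35.0% in the centre (interval 31.6 to 38.5%) and 42.3% on the right (interval 39.0 to 45.7%).

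By peak number in bins of 1 Mb, IV had 1 tall crest, several low bins apart from each other and a second, lower rise. The median of the 17 complete bins was 149 series-wide peaks, the lowest 90 and the highest 307. The 80 complete bins of the other chromosomes had a median of 139.5, and 17 of them held fewer peaks than the emptiest bin of IV. After the crest at 1 to 2 Mb with 307 peaks came 3 to 4 Mb with 210, 13 to 14 Mb with 208, 2 to 3 Mb with 194 and 4 to 5 Mb with 178. The crest was also the fullest bin of replicate 1, with 56 peaks against a median of 27, and of replicate 2, with 49 against 29. Its peaks covered 18.6% of the bin in the series-wide list, 21.1% in replicate 1 and 17.4% in replicate 2. By covered share the crest stood out less. The bin from 4 to 5 Mb reached 21.3% in replicate 1, and that from 11 to 12 Mb 16.8% in replicate 2. In the series-wide list these bins, at 16.6% and 15.6%, lay above 13 to 14 Mb at 13.6%.

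The low bins lay at 5 to 8 Mb, 10 to 11 Mb and 16 to 17 Mb. Between the first 2 of these places, 8 to 9 Mb and 9 to 10 Mb held 149 and 158 peaks. The emptiest bin was 6 to 7 Mb with 90 series-wide peaks, followed by 10 to 11 Mb with 97, 7 to 8 Mb and 16 to 17 Mb with 112 each, and 5 to 6 Mb with 114. Few peaks did not always mean little coverage. In the bin from 5 to 6 Mb the 114 peaks covered 12.5% of the bases, close to the median bin at 12.4%, whereas the bin from 10 to 11 Mb had the lowest coverage of the 17 in every list, 5.98% in the series-wide list, 7.47% in replicate 1 and 6.13% in replicate 2. Peaks of 6 to 7 Mb were well supported, since 48.9% were in both replicates and 16.7% in neither. Between 2 and 3 Mb the shares were 27.8% and 43.8%. Bin counts of the replicates had a rank correlation of 0.70 over the 17 bins, given as a description of 2 lists that share the same bins.

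**Figure D2:**
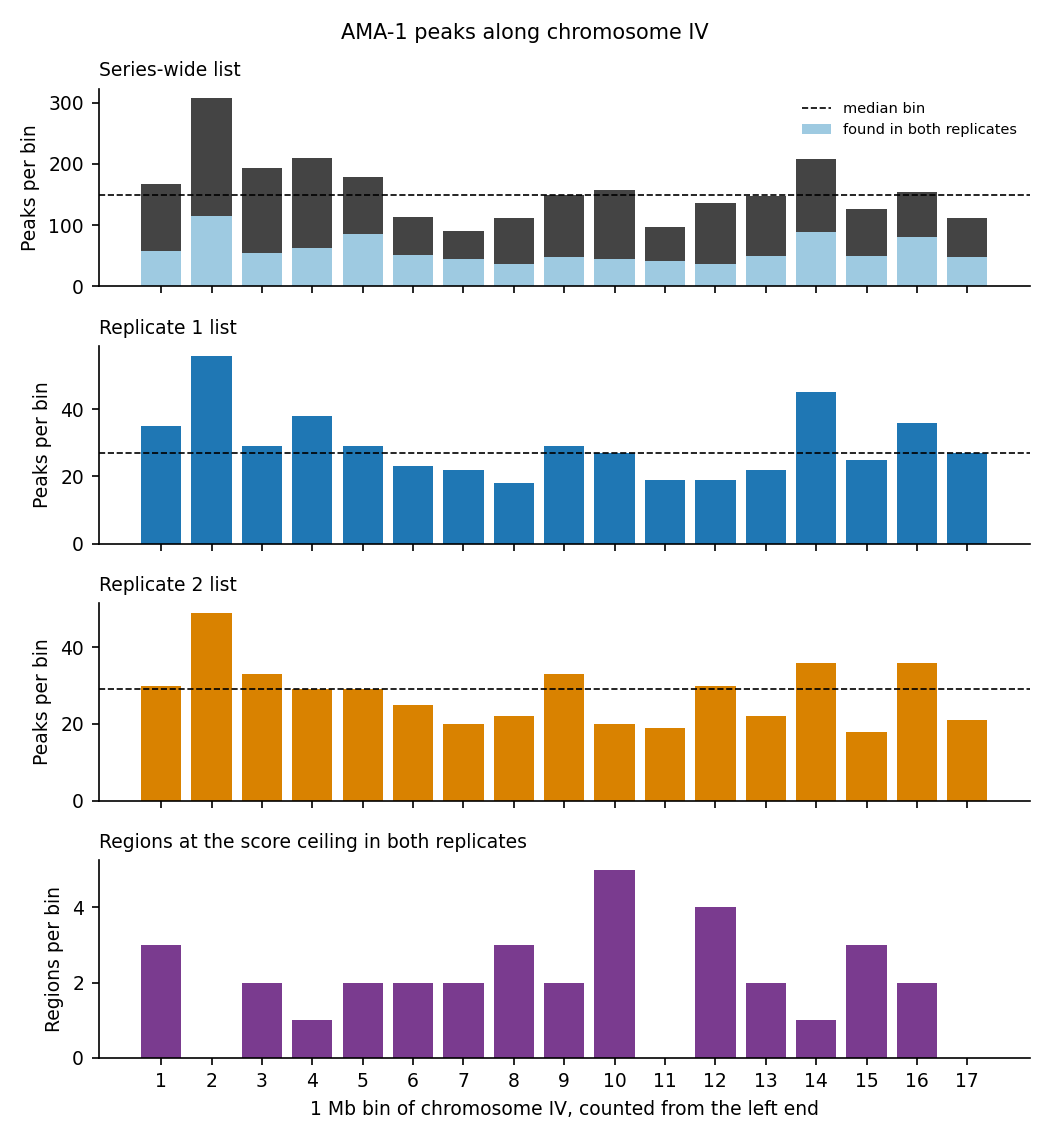
Peaks per 1 Mb bin along chromosome IV, with bin 1 at the left end, in the series-wide list (light bars: peaks found in both replicates) and the 2 replicate lists; dashed lines mark the median bin. The bottom panel counts the regions at the score ceiling in both replicates. Bin 2 is the fullest in all 3 lists, with 307, 56 and 49 peaks, and holds 0 regions at the ceiling.

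Regions at the score ceiling did not follow the crest. A score of 3100 or above was reached by 55 replicate 1 peaks of IV (10.8%, background 10.1%) and by 38 replicate 2 peaks (7.82%, background 6.86%). Of the 55, 34 had a partner that also reached the ceiling, 20 a partner below it and 1 none. Joined by overlap, ceiling peaks of both replicates formed 34 regions on IV with a median span of 9.97 kb, from 2.92 to 25.2 kb. The centre held 16 of them, the left part 10 and the right part 8. On V the centre held 18 of 33, on I 9 of 30, on II 8 of 29, on III 4 of 19 and on X 8 of 23. The centre thus held the most regions on IV and V and on no other chromosome. The fullest bin, 1 to 2 Mb, held 0 of the 34, and the bin from 9 to 10 Mb held 5.

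The 20 series-wide peaks of highest score, from 117.44 to 175.08, were all found in both replicates, and 19 of them lay in peaks at the ceiling in both. They had widths between 3.65 and 13.7 kb with a median of 7.88 kb, and 10 lay in the centre, 6 on the left and 4 on the right. They were also the 20 peaks of IV among the 100 highest of the whole series-wide list. The highest, from 9506986 to 9511911, stood alone, with no other series-wide peak within 1000 bp. Replicate 1 listed it from 9506099 to 9512324 and replicate 2 from 9506796 to 9512316, so the borders in the 3 lists lay within 1 kb of each other. The second, from 9444393 to 9451728 with a score of 163.93, belonged to a cluster of 8 peaks that replicate 1 listed as 1 peak of 21.2 kb. The third, from 991108 to 998983 with a score of 163.04, lay at the left, where the replicate peaks were 10.55 and 10.65 kb wide.

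Several strong regions came in groups. Around 11.3 Mb a replicate 1 peak of 24.9 kb, from 11319898 to 11344820, held 2 of the 20, from 11335907 to 11343793 with a score of 154.04 and from 11322176 to 11330669 with a score of 122.62. Replicate 2 listed them apart, as peaks of 10.5 and 11.8 kb. Near 12.8 Mb the peaks from 12781826 to 12791797 (score 129.95) and from 12795361 to 12799545 (score 155.71) lay in neighbouring clusters of 3 peaks each. Both clusters were to the left of an empty stretch that began at 12856184. The bin from 9 to 10 Mb held 4 of the 20, namely both highest peaks and those from 9140269 to 9146989 (146.77) and from 9769583 to 9775622 (130.8).

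The other strong peaks were spread over the chromosome. On the left they ran from 2397060 to 2405450 (154.03), 853583 to 867277 (151.66), 4347472 to 4361209 (132.96), 4875499 to 4880975 (124.65) and 4384060 to 4394886 (117.44). In the centre they ran from 7483987 to 7492182 (155.89), 11637428 to 11641073 (149.84), 8327969 to 8338682 (149.58) and 7316529 to 7327461 (142.39), and on the right from 14322576 to 14327440 (155.88) and 14030908 to 14035292 (147.84). The peak from 4384060 was the exception among the 20. It lay within the widest peak of IV in either replicate list, 29.5 kb in replicate 1 and 30.3 kb in replicate 2, whose scores were 245.92 and 97.44, far below the ceiling.

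**Figure D3:**
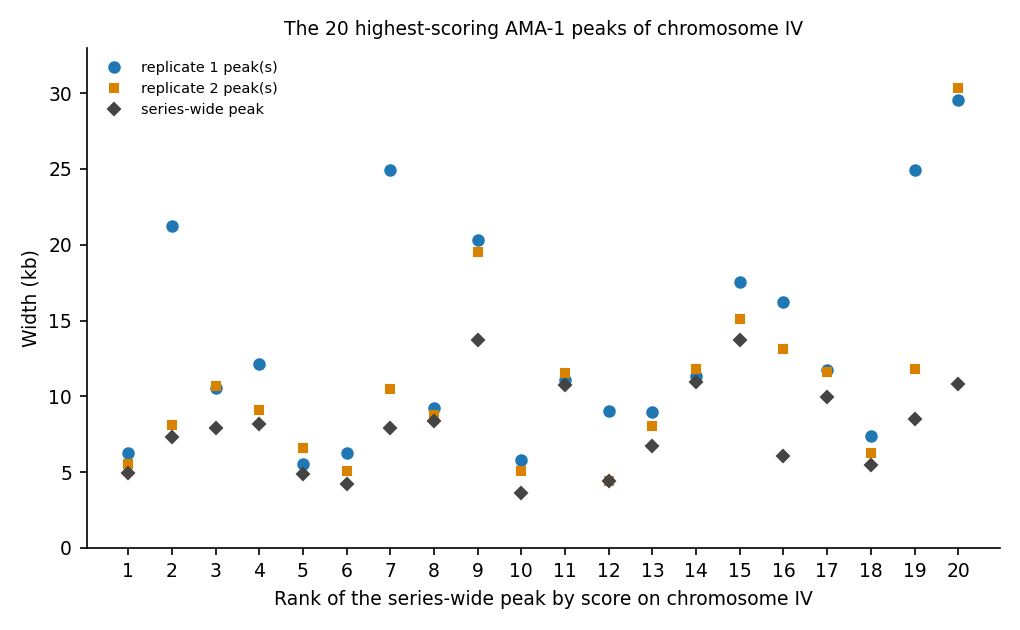
Width (kb) of the 20 highest-scoring series-wide peaks of chromosome IV, in order of score, with the width of the replicate peaks that overlap each of them (summed where there are 2). Replicate 2 peaks of ranks 7 and 19 are 10.5 and 11.8 kb wide, where replicate 1 has 1 peak of 24.9 kb, and rank 20 lies in the widest replicate peaks, of 29.5 and 30.3 kb.

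Peaks of IV were strongly gathered, though no cluster counts of the other chromosomes are given here for comparison. The median distance between neighbouring series-wide peaks of IV, 494.5 bp, lay within the range of the others. That range ran from 436 bp on III to 548 bp on X. Joining series-wide peaks with at most 1000 bp between them gave 968 clusters, of which 442 were single peaks, and 2285 peaks (83.8%) had at least 1 neighbour. Clusters of 5 or more peaks numbered 166 and held 48.6% of all peaks, and 37 clusters held 10 or more. These values rest on the joining distance: with 500 bp, clusters of 5 or more held 25.6% of peaks and 10 clusters held 10 or more, and with 5000 bp the values were 78.4% and 81. Of the 37, 20 lay on the left, 7 in the centre and 10 on the right. Cluster size went with support. Both replicate lists touched 10.4% of single peaks (interval 7.89 to 13.6%), 40.8% of clusters of 2 to 4, 79.1% of clusters of 5 to 9 and 86.5% of the 37 largest (interval 72.0 to 94.1%). A longer cluster offers more bases to overlap, and the part this has in the shares was not tested.

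The richest cluster, with 28 peaks, ran from 1296499 to 1325695 in the crest bin. It spanned 29.2 kb, 24 of its peaks were in both replicates, and 8 replicate 1 peaks and 7 replicate 2 peaks covered 91.3% and 90.6% of it, yet its best score was 34.39. The median score of its peaks, 12.895, lay above the upper quartile of all series-wide peaks of IV, 9.88, while none of them scored over 100. The cluster from 15027355 to 15062497 held 26 peaks over 35.1 kb with a best score of 60.51. The one from 4380141 to 4413443 held 18 over 33.3 kb, which both replicates covered almost wholly (97.6% and 99.8%). Further clusters among the 10 longest lay in the right part, from 14060466 to 14084999 (24.5 kb), 16480801 to 16509125 (28.3 kb), 16845480 to 16867304 (21.8 kb) and 17101615 to 17127393 (25.8 kb), and on the left, from 3213635 to 3235654 (22.0 kb) and 2387633 to 2409873 (22.2 kb).

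**Figure D4:**
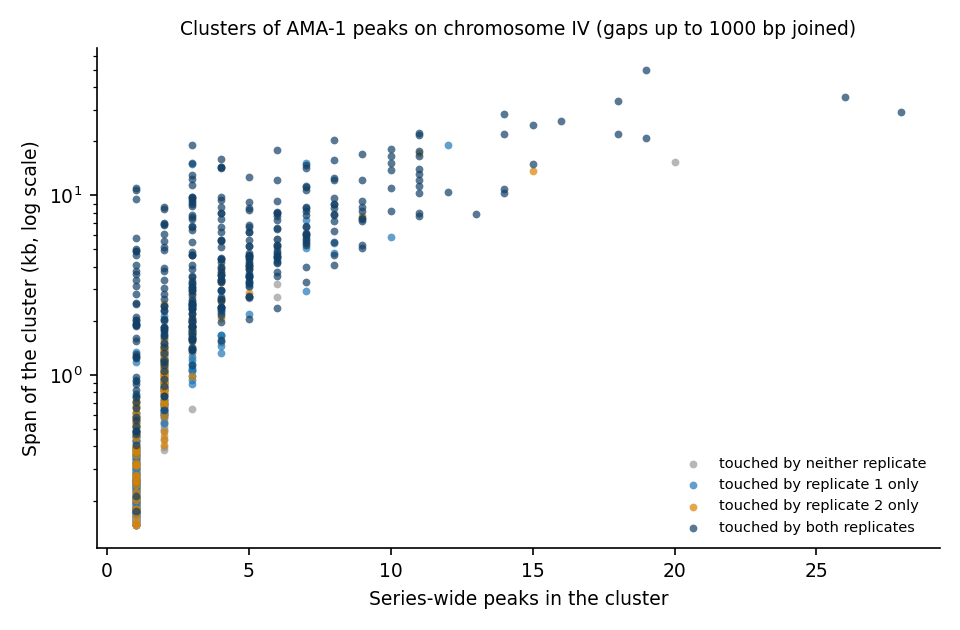
Clusters of series-wide peaks on chromosome IV, by number of peaks and span (kb, log scale), coloured by the replicate lists that touch them. The cluster of 28 peaks spans 29.2 kb, the longest spans 49.6 kb with 19 peaks, and a cluster of 20 peaks is touched by neither replicate.

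The longest cluster was one on which the replicates differed. It ran over 49.6 kb from 11583875 to 11633432 and held 19 peaks, of which 0 were in both lists and 11 in neither. Replicate 2 peaks covered 71.6% of it and replicate 1 peaks 6.20%. A neighbouring cluster of 15 peaks from 11566193 to 11579834 was touched by replicate 2 and not by replicate 1. Over the 67.2 kb from 11566193 to 11633432, a stretch chosen after its values were seen, the series-wide list covered 83.3% of the bases, replicate 2 covered 73.2% with 3 peaks and replicate 1 covered 4.57% with 2. The widest series-wide peak of IV, 15.4 kb from 11606773 to 11622182 with a score of 89.06, lay here, over a replicate 2 peak at the ceiling from 11606408 to 11619657 that had no replicate 1 partner. A few kb further right, the peak from 11637428 to 11641073 was at the ceiling in both replicates, so the lists matched again there.

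Other strong peaks of 1 list without a partner were fewer than the weak ones but clear. In replicate 1 the highest was a peak of 16.0 kb at the ceiling from 14778816 to 14794843, over a series-wide peak from 14781406 to 14792961 with a score of 92.86. Next came adjoining peaks from 4163340 to 4180920 (score 1474.09) and from 4181003 to 4185361 (score 977.41), then those from 5163544 to 5168969 (863.41) and 4091981 to 4097156 (746.5). The second highest of replicate 2, from 5170071 to 5186498, scored 644.15 and lay directly beside the replicate 1 peak that started at 5163544, so that each list marked 1 side of the same locality. It was followed by those from 9438044 to 9442456 (558.06), 7913319 to 7917479 (503.26) and 8082496 to 8085783 (463.85).

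A dense group of series-wide peaks had no counterpart in either replicate. From 7132765 to 7148163, 20 peaks covered 82.9% of 15.4 kb, with a best score of 18.45 and a median of 5.53, and neither replicate list held a peak there. A far sparser case was the stretch from 10555139 to 10734894, 180 kb that both replicate lists left free. There the series-wide list placed 14 peaks covering 3.78% of the bases with a best score of 18.06. Within it, a cluster of 6 peaks from 10674171 to 10679912 covered 83.5% of 5.74 kb. The highest score in neither list was 19.78, at 2213404 to 2213968. The others of the 5 highest were those from 7132765 to 7134229 (18.45), 10679275 to 10679912 (18.06), 5967002 to 5967309 (17.23) and 573868 to 574242 (16.71). Of these 5, 3 stood alone, 1 belonged to the group of 20 and 1 to a group of 6.

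Stretches without a peak took up much of IV, though at unknown read depth a missing peak does not show that polymerase was absent. In the series-wide list the median distance between neighbouring peaks was 494.5 bp, and 76 gaps were longer than 50 kb and made up 33.7% of the chromosome. On II such gaps made up 32.1% of the span and on V 54.4%. The left part, which held the most peaks, held 20 of the 76, and the centre and right parts 28 each. In replicate 1 there were 106 such gaps and in replicate 2 103, which made up 57.3% and 57.5% of IV. No peak of any list lay in 75 stretches over 50 kb, which together were 32.8% of IV, so the empty stretches of the series-wide list were almost all empty in the replicates too.

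The longest stretch without a peak in any list ran over 180 kb from 4470227 to 4650627. It was followed by 174 kb near the right end, from 17282448 to 17456677, 163 kb from 12856184 to 13019233, 161 kb from 11861199 to 12022151 and 131 kb from 3815165 to 3946081. The first of these lay in the bin from 4 to 5 Mb, in which the series-wide peaks covered 16.6% of the bases and which also held the widest replicate peaks of IV, so full and empty stretches stood side by side. The right-end stretch separated the body of IV from a last small group of peaks. Other long gaps of the series-wide list ran from 15235235 to 15366761 (132 kb), 7654277 to 7770532 (116 kb), 7327462 to 7441061 (114 kb), 6666180 to 6779340 (113 kb) and 11186600 to 11299092 (112 kb). The longest gap of replicate 1, 306 kb from 15061704 to 15367534, held 11 series-wide and 3 replicate 2 peaks and so was not empty in the other lists.

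**Figure D5:**
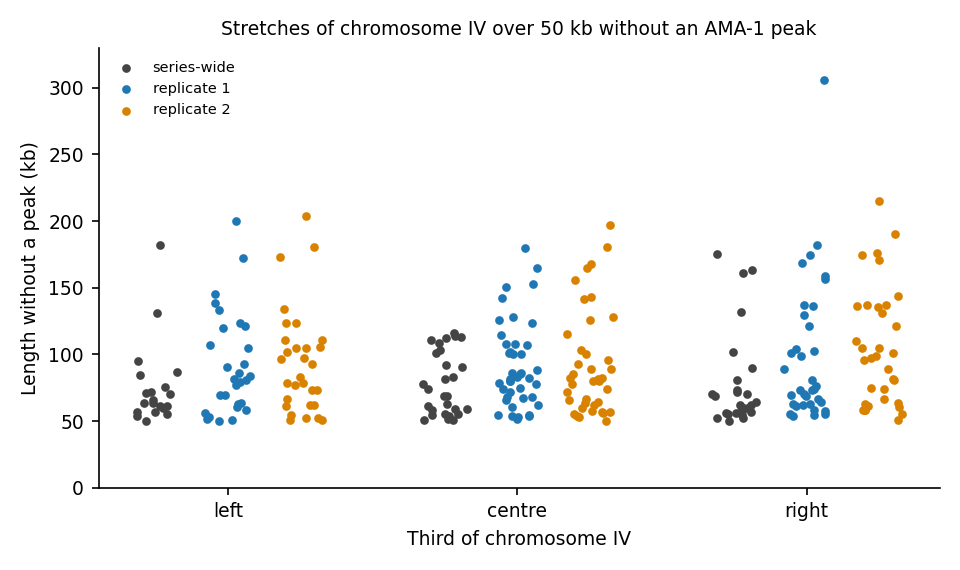
Lengths (kb) of the stretches over 50 kb without a peak, by part of chromosome IV and list; each point is 1 stretch. The series-wide list has 20, 28 and 28 of them, with the longest at 182 kb on the left, and the longest of replicate 1 is 306 kb on the right.

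The first series-wide peak lay at 48556 to 48736, and the first peaks of the replicates at 80853 to 81981 and 85272 to 86876, so that no list held a peak left of 48556. On the right, replicate 1 had a last peak from 17456972 to 17461131 (score 97.23) and replicate 2 one from 17456678 to 17461461 (score 219.08). The series-wide list placed a cluster of 5 small peaks there, the last from 17460402 to 17460612 with a score of 2.87. The length of IV used here was set by the last of these peaks, so their distance from the end of the chromosome is not known.

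The 21U-RNA genes of IV are known to lie mainly in 2 broad regions, taken here in whole Mb from general knowledge as 4 to 7 Mb and 13 to 17 Mb and not read from the files. Together these regions held 983 series-wide peaks, or 140 per Mb, against 167 per Mb in the rest of IV, a ratio of 0.842. Their covered share pointed the other way, at 12.5% against 11.6%. In replicate 1 the densities were 29.6 and 29.1 per Mb, and in replicate 2 they were 26.4 and 28.8 per Mb. The median score there was 6.27 against 5.56 in the series-wide list, 324.1 against 260.25 in replicate 1 and 301.85 against 172.09 in replicate 2. In replicate 1 this held for 4 to 7 Mb, with a median of 470.95, and not for 13 to 17 Mb, with 245.97. In replicate 2 the medians of the regions were 288.72 and 315.73, and in the series-wide list 6.35 and 6.23. Among series-wide peaks found in both replicates the density was 64.1 per Mb in the regions and 55.6 per Mb elsewhere. In the series-wide list peak number and median score thus gave opposite orders, and no difference was tested. Peaks were not joined to genes, so these values do not say which of them, if any, lay at 21U-RNA genes.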

How the data were processed

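AMA-1 ChIP-seq was done in 2 ChIP libraries with 2 input libraries. The authors deposited 3 peak lists, 1 for each ChIP replicate and 1 for the whole series, in WormBase WS220 coordinates per the file headers. BWA and the ce10 assembly are named, per the submitters' processing notes. The source columns name MACS without a version for the replicate lists and MACS version 2 for the series-wide list. How peaks were called, whether input served as control and whether replicates were pooled is not given in the sources used here. The files state no unit for the deposited score, and scores were compared within a list. In the replicate lists many peaks share a score of 3100, and values at or above it were treated as tied.

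Peaks of IV were taken by the chromosome column. A peak was placed by its midpoint, counted as shared at an overlap of 1 bp, and joined to its neighbour into a cluster across at most 1000 bp. Chromosome IV was taken to end at 17461461, the last peak end in any list, and was divided into 3 equal parts. Peaks tied at the border of a score class were divided in list order. Densities are peaks per Mb. Intervals are 95% Wilson intervals, limited to counting error; they take peaks as independent, which neighbours are not. Both libraries belong to 1 group, no peak list of the input libraries was used here, and no resampling over peaks was made, so no test is given. Replicates are shown side by side. Read depth is unknown. Overlap, joining and density routines were tested on simulated lists. The members, the lists and the regions were chosen with earlier results of these data known. Regions named are the 20 series-wide peaks of highest score, the longest clusters, the longest gaps, the fullest and emptiest bins, the highest-scoring peaks missing from a replicate list, the widest replicate peaks and the first and last peaks. The gene table at hand describes WBcel235 and not WS220, so it was used for names alone and regions are given by position. The software was numpy 2.4.6, pandas 2.3.3, scipy 1.17.1 and matplotlib 3.10.9 under Python 3.11.15. Alternatives changed the overlap rule, the score threshold, the list, the borders, the bins and the joining distance.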

Additional observations from a re-analysis of the deposited data

How the results depend on the processing

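Values were recomputed under alternatives fixed beforehand. The share of series-wide IV peaks in both replicates (37.8%) was 34.8% with 50% of the peak covered, 34.8% by midpoint, 55.7% in the better-scoring 50% of series-wide peaks, 93.2% in the top 10% by score, and 20.9% with the better-scoring 50% of each replicate list. With 1 replicate list it was 48.3 to 60.0%, higher by construction. Reciprocal overlap of 50% gave 57.5% of replicate 1 and 60.5% of replicate 2 peaks, the midpoint rule 66.3% of replicate 1, and the better-scoring 50% 84.1% of replicate 2. The outer parts stayed denser than the centre under 11 of 11 alternatives, at 1.54 for the better-scoring 50%, 1.52 for peaks in both replicates, 1.23 by covered bases and 1.33 to 1.45 with 1 replicate as support. The left part was almost level with the right for the best-scoring 10%, at 1.02, and stayed above it in the other alternatives. The ratio of left to right was 1.17 for peaks in both, 1.20 in replicate 1, 1.25 in replicate 2 and 1.29 by covered bases. It was 1.49 with the outermost of 4 equal parts, 1.70 with the outermost of 5 and 1.276 to 1.283 with 1 replicate as support.

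The fullest bin was 2.06 times the median bin, 2.36 for the better-scoring 50%, 1.50 in the top 10% by score, 1.69 in replicate 2, 1.50 by covered bases, 1.71 with bins moved by 500 kb and 2.03 to 2.08 with 1 replicate as support. Joining gaps up to 5000 bp gave 483 clusters. The longest gap was 306 kb in replicate 1. The density of IV relative to the others was 0.976 in replicate 2 and 0.975 to 1.01 with 1 replicate as support. That of the 21U-RNA regions, 0.842, was 0.971 for the better-scoring 50%, 1.41 in the top 10% by score, 1.15 for peaks in both, 1.02 in replicate 1, 0.919 in replicate 2, 1.07 by covered bases and 0.995 to 1.04 with 1 replicate as support. The ratio of median scores, outer to centre, was 1.08 in the series-wide list, 0.751 in replicate 1 and 0.684 in replicate 2. The cause of these changes was not tested. No paired analysis was possible because only 1 group, the ChIP libraries, has peaks to compare here. Unknown depth limits every statement on a missing peak.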

Other observations

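Series-wide scores of IV were partly tied. The 2727 peaks had 932 distinct scores, and the most common, 4.48, was shared by 72 peaks, followed by 3.25 with 68 and 3.53 with 63.

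Of the replicate peaks of IV without a series-wide peak, the highest score in replicate 1 was 73.01, at 5937896 to 5939830. That in replicate 2 was 100.93, at 1201718 to 1203648. None of the 4 in replicate 1 or the 3 in replicate 2 had a partner in the other replicate list.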
